A study of Mus musculus with 20 samples.

Results

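*Poll* and *Dpcd* are a divergent gene pair whose start sites share a single 5 kb bin of the capture Hi-C (cHi-C) maps of the mouse *Lbx1*/*Fgf8* locus. *Poll* encodes DNA polymerase lambda, a repair polymerase that works in base excision repair and in the joining of DNA ends, and *Dpcd* is named for primary ciliary dyskinesia in mice with a deletion at this locus. The contacts described here are all bin pairs of the maps in which the shared bin, chr19:45635001-45640000 (mm9), is one partner and any bin between 44440001 and 46400000 is the other. In the wild-type map these were 389 of 75855 bin pairs with a value, and in the homozygous *Dup* map they were 387 of 75078. The bin is defined by the annotation and by none of the contact values, but it was chosen with earlier results of these data known.

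The maps were made from fore- and hindlimb buds at E11.5, with wild-type embryos of the background c57bl6.J and mutant embryos of the background G4 ESC. The mutants were homozygous for a tandem duplication (*Dup*), for a short inversion (*Inv1*) or for a long inversion (*Inv2*), or heterozygous for *Dup* or *Inv1*. The 20 libraries comprised 3 biological replicates and 1 technical replicate for the wild-type and for each homozygous mutant, 3 biological replicates for heterozygous *Inv1* and 1 for heterozygous *Dup*, whose genotype label names an inversion while its title names *Dup*. The authors deposited 1 merged map per genotype, so no spread between embryos can be given, no p-value was computed, and the background and the rearrangement cannot be told apart.

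In a topologically associating domain (TAD) the DNA contacts itself more often than its surroundings, and promoters and enhancers that share a TAD can meet more readily. The *Lbx1* TAD, taken as 45290001 to 45615000, holds *Lbx1*, a homeobox gene of migrating limb muscle precursors, and *Btrc*, which encodes the F-box protein beta-TrCP of a ubiquitin ligase. The *Fgf8* TAD, taken as 45650001 to 45820000, holds *Fgf8*, a growth factor gene of the apical ectodermal ridge (AER), the limb bud's distal signalling centre, and *Fbxw4*, a further F-box gene whose introns carry *Fgf8* enhancers of the AER. The start sites of *Poll* and *Dpcd* lie in the stretch between the TADs, and the far end of *Dpcd* reaches into the *Fgf8* TAD as taken here.

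By the annotation *Poll* (ENSMUSG00000025218.6) runs from 45635021 down to 45626765 and *Dpcd* (ENSMUSG00000041035.7) from 45635105 up to 45652769. Only 21 bases of *Poll* but 4896 of *Dpcd* lay in the shared bin, and the next bin towards the *Lbx1* TAD lay wholly within *Poll*. Only 20 bases of the shared bin lie between the *Poll* start site and that next bin. Contacts given below for the promoter are those of the shared bin. The start sites are separated by 83 bases of intergenic sequence, shown because a site of DpnII, the enzyme that cut the chromatin, lies in it (in capitals), so that both starts can be on different restriction fragments although the maps join them in a bin.
Stretch between the start sites, chr19:45635022-45635104 (mm9, + strand): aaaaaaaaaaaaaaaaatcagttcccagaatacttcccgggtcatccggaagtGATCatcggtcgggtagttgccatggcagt
The bin held 10 DpnII sites (median over the 392 bins, 12) and had a GC content of 48.4% (median, 46.65%).

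The positions of the breakpoints decide how far the bin travels, and the genomic sites matched by the guide RNAs are shown for this reason, with the PAM in capitals.
*Inv1* centromeric site, chr19:45611034-45611056 (mm9, + strand): ggcctcaatacacctccatgGGG
*Inv1* telomeric site, chr19:45734085-45734107 (mm9, + strand): ggtgacaccagtattcctcgAGG
*Inv2* centromeric site, chr19:45332272-45332294 (mm9, + strand): ctgacatttagctgtgatcgGGG
*Dup* and *Inv2* telomeric site, chr19:45792720-45792742 (mm9, - strand): ttaaatttctccaagataagAGG
*Dup* centromeric site, chr19:45251628-45251650 (mm9, - strand): cccaggaatcgccgatgacaGGG
The *Inv1* telomeric site lies in an intron of *Fbxw4* and the other 4 sites are intergenic. *Inv1* turns 123 kb, *Inv2* turns 460 kb and *Dup* repeats 541 kb, and each of them contains the shared bin.

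*Inv1* carries the bin 70.2 kb towards *Fgf8*. The distance to the *Fgf8* start fell from 179.9 to 109.8 kb and that to the *Lbx1* start rose from 327 to 397 kb. *Inv2* carries it 149.99 kb the other way, so that *Lbx1* came to lie 177 kb and *Fgf8* 329.9 kb away. In *Dup* both genes are present with the promoter in each copy, *Fgf8* lies outside, and a second copy of *Lbx1* lies 213.9 kb from the first copy of the bin.

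**Figure D1:**
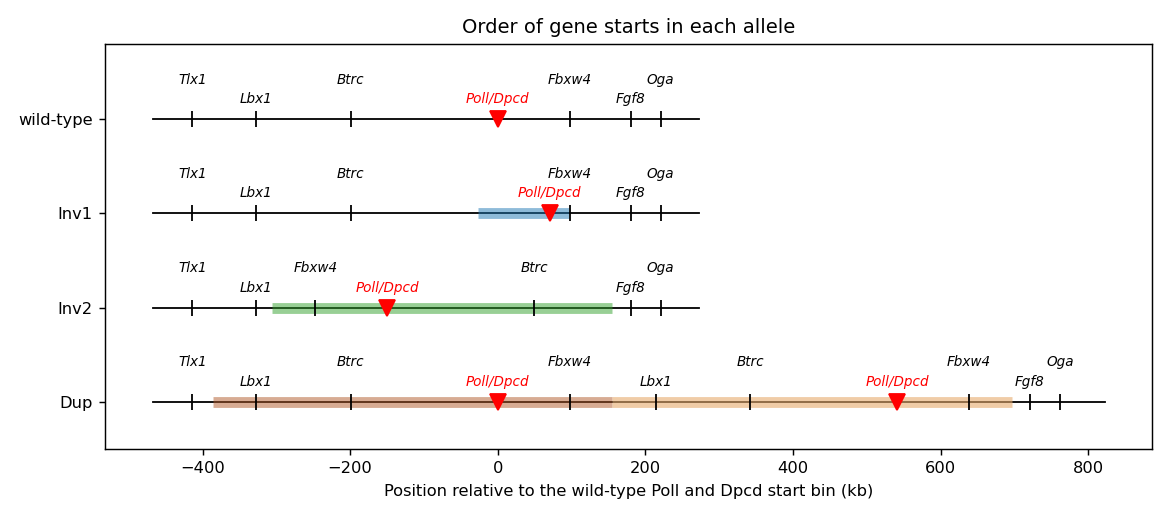
Order of gene starts in the wild-type and in each rearranged allele, drawn to scale, with the x axis in kb from the wild-type *Poll* and *Dpcd* start bin. Coloured bars mark the inverted interval or the copies of the duplicated interval, and the red triangle moves 70.2 kb towards *Fgf8* in *Inv1* and 149.99 kb towards *Lbx1* in *Inv2*.

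The bin was covered well in all 6 maps. Division of the deposited signal by the balancing factors returned whole read pairs, of which 35023 joined the bin to others in the wild-type, 105148 in homozygous *Dup*, 55493 in *Inv1*, 59086 in *Inv2*, 22162 in heterozygous *Dup* and 38238 in heterozygous *Inv1*. Relative to bins outside the duplication and to the wild-type, that was 2.25 times as many in homozygous *Dup*, 1.86 times in heterozygous *Dup*, and 0.989, 0.996 and 0.991 times in *Inv1*, *Inv2* and heterozygous *Inv1*. In read pairs of the bin the 3 inversion maps thus stood near the wild-type and the *Dup* maps above it. The median pair of the bin with a single other bin held 32 read pairs in the wild-type and 21 in heterozygous *Dup*, the shallowest map, so single distant bins carry little weight.

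In the wild-type, the promoter's contacts were shared almost evenly between the flanking TADs. In a virtual 4C profile, the contacts of the bin scaled to a total of 1000 without the bin itself and 5 kb on either side, the *Lbx1* TAD took 29.5% (Wilson 95% interval 28.99 to 30.01) and the *Fgf8* TAD 28.1% (27.6 to 28.6). The stretch between the TADs took 10.4%, the map centromeric of the TADs 14.8% and the map telomeric of them 17.2%. The *Fgf8* TAD is the shorter of both, and per bin the signal was 4.54 in the *Lbx1* TAD and 8.51 in the *Fgf8* TAD, a ratio of 0.534 (95% counting interval 0.517 to 0.550).

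The starts of *Lbx1*, *Fbxw4* and *Fgf8*, which lie within the TADs, divided their contacts less evenly. The *Lbx1* start gave 51.0% of its profile to the *Lbx1* TAD and 9.81% to the *Fgf8* TAD. For the *Fbxw4* start these shares were 15.8% and 50.6%, and for the *Fgf8* start 20.2% and 34.2%.

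With distance taken into account, the bin's contacts were weak close by and strong at the far ends of both TADs. Observed over expected is the signal over the mean signal of the wild-type map at that distance. Its mean per bin was 0.730 in the stretch between the TADs and 0.849 over the interval of the AER enhancers (45655001 to 45705000), and it was 3.50 at the centromeric boundary of the *Lbx1* TAD (45280001 to 45305000) and 2.43 at the telomeric boundary of the *Fgf8* TAD (45810001 to 45835000). Both boundaries stood out from their surroundings. Signal per bin there was 1.62 times (1.49 to 1.75) and 1.83 times (1.71 to 1.95) that of the 50 kb on either side, and the strongest single bins were 45290001 to 45295000 at 3.90 with 346 read pairs and, on the telomeric side, 45820001 to 45825000 at 3.26 with 493.

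**Figure D2:**
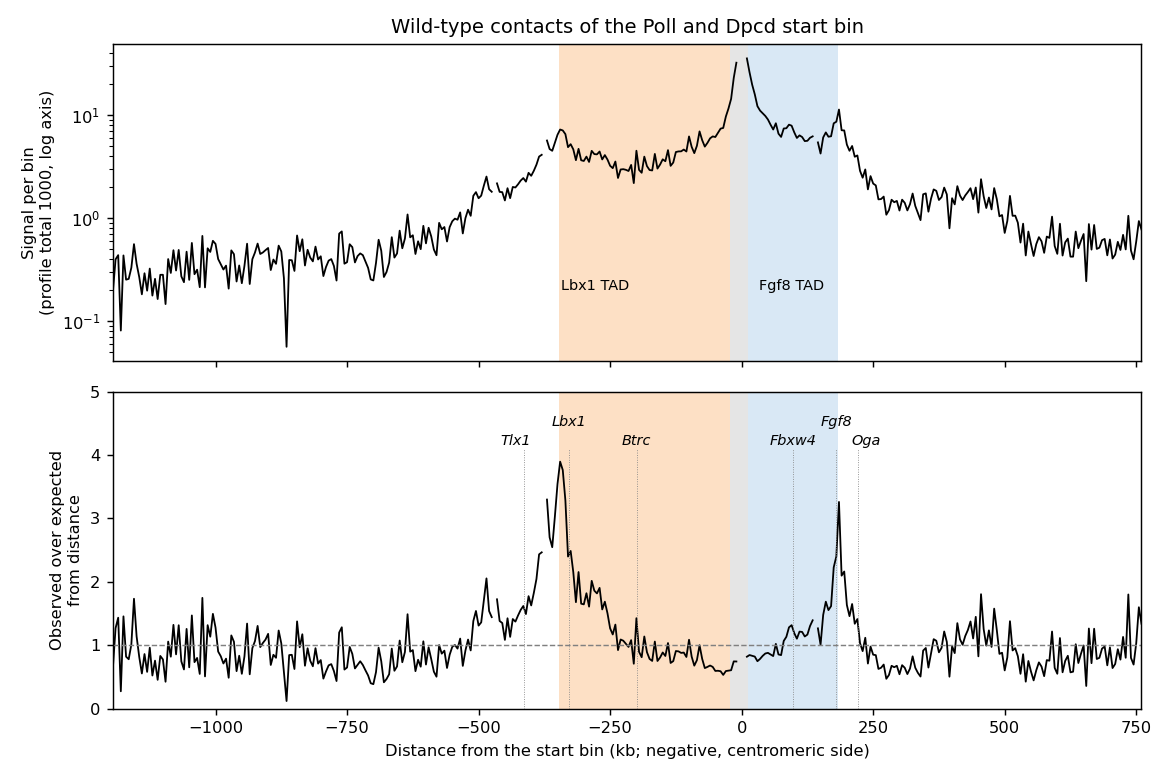
Wild-type virtual 4C profile of the *Poll* and *Dpcd* start bin (upper, signal per 5 kb bin on a log axis) and observed over expected from distance (lower), by distance from the bin in kb. Shading marks the *Lbx1* TAD, the stretch between the TADs and the *Fgf8* TAD, and the peaks of 3.90 and 3.26 stand at the outer ends of the TADs.

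In balanced signal at equal distance the telomeric side was the stronger out to 180 kb. The centromeric side had 0.831 times the signal of the telomeric side between 10 and 30 kb (0.788 to 0.875), 0.748 times between 35 and 80 kb (0.703 to 0.795) and 0.616 times between 85 and 180 kb (0.583 to 0.650). Between 10 and 30 kb the read pairs without balancing went the other way, with 2978 on the centromeric and 2884 on the telomeric side. Beyond 180 kb the order of the signal turned. Between 185 and 380 kb, a band that holds the far end of the *Lbx1* TAD on one side and the map beyond *Fgf8* on the other, the centromeric side had 1.62 times the signal (1.54 to 1.70).

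Among 28 bins with protein-coding starts more than 100 kb away, those of *Npm3*, *Lbx1* and *Fgf8* had the strongest contact for their distance, at 3.26, 2.49 and 2.403. *Npm3*, which encodes a histone chaperone of the nucleophosmin family, starts in the strongest bin of the telomeric boundary. The rows of observed over expected that were most like that of the promoter, by Pearson's r of log2 values across 25 kb windows of the wild-type map, were those of the *Gm6807* (r = 0.73 over 76 windows), *Npm3* (r = 0.73 over 76) and *Fgf8* (r = 0.71 over 75) start bins, among 29 compared. The windows share one map and its depth, and the values are a description.

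The start bin stood within a steep gradient of bins. From 20 kb centromeric to 20 kb telomeric of it, mean observed over expected with the *Lbx1* TAD fell from 1.87 to 1.01 while that with the *Fgf8* TAD rose from 0.910 to 1.51, and the start bin had 1.24 and 1.18. Contact with the centromeric boundary was highest 15 kb to the *Poll* side, at 5.40, and contact with the telomeric boundary was highest 10 kb to the *Dpcd* side, at 2.91. The promoter lay between these maxima and was the highest bin for neither.

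In homozygous *Inv1*, the start bin kept its wild-type contact with each TAD as a whole, although it had been carried towards *Fgf8*. Ratios to the wild-type were taken after both maps had been scaled jointly at each distance outside the rearranged interval. The *Lbx1* TAD had a mean signal 0.983 times that of the wild-type (0.957 to 1.01) and the *Fgf8* TAD 0.994 times (0.966 to 1.02). Distance alone, from the wild-type decay and the inverted order, would give 0.653 and 1.25.

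Within the TADs the changes were uneven, and contact with both outer ends fell. The part of the *Fgf8* TAD turned together with the promoter had a ratio of 0.955 (0.921 to 0.990; expected 1.00). The part outside the inversion, which holds the outer end, had 1.08 (1.03 to 1.13; expected 1.95). In the wild-type the *Fgf8* start (3 bins) held a signal of 9.38 per bin in the promoter's profile and in *Inv1* 6.67, and its jointly scaled ratio was 0.708 (0.654 to 0.767), where the shorter distance alone would give 1.47. These 3 bins run from 45810001 to 45825000. The outermost, just past the TAD end, is the *Npm3* start bin and had the highest wild-type observed over expected of the 3, at 3.26. All values given for contact with the *Fgf8* start include it. The telomeric boundary, of whose 5 bins 3 are those of the *Fgf8* start, so that the values are not independent, fell to 0.736 (0.688 to 0.787) against an expected 1.47. Its excess over the surrounding 50 kb fell from 1.83 to 1.35 (1.28 to 1.43). Contact of the start bin with the 3 bins of the *Fgf8* start was thus lower although *Fgf8* was nearer. The bordering bin on the *Poll* side had an *Fgf8* ratio of 1.05 (0.971 to 1.13), so a loss cannot be stated for the promoter apart from its bin.

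The *Lbx1* start fell from a signal of 4.90 to 4.07, a ratio of 0.797 (0.706 to 0.900), and here the longer distance alone would give 0.784. The centromeric boundary fell to 0.715 (0.659 to 0.776; expected 0.794). The part of the *Lbx1* TAD that lies towards the promoter did not follow distance. Of the 13 windows of 25 kb in that TAD, 12 had a counting interval above the ratio expected, with observed ratios between 0.855 and 1.13 and expected ones between 0.525 and 0.824. The window at the outer end, which holds the *Lbx1* start, had 0.773 (0.714 to 0.836) where 0.788 was expected.

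At the *Btrc* start the ratio in *Inv1* was 1.05 (0.894 to 1.24; expected 0.737), an interval that holds 1. The AER enhancers are turned together with the promoter and keep their distance to it, and their ratio was 0.964 (0.922 to 1.01). At the *Fbxw4* start, whose 3 bins hold the breakpoint, it was 1.06 (0.962 to 1.18; expected 1.59). Past the *Fgf8* TAD, 24 telomeric windows had a median ratio of 1.09 and reached 1.43 at 290 kb, and none had a counting interval above the expected ratio.

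These values belong to the start bin itself and changed within 5 kb of it. In *Inv1*, contact of single bins with the *Fgf8* start fell from 2.02 times the wild-type 20 kb to the *Poll* side, through 1.05 in the bin of the *Poll* gene body and 0.708 in the start bin, to 0.554 in the next bin to the *Dpcd* side and 0.381 at 15 kb. Contact with the *Lbx1* TAD rose over the same bins from 0.447 through 0.795, 0.983 and 1.18 to 1.44. The start bin differed from each neighbour beyond counting error: its *Fgf8* ratio was 0.675 times that of the *Poll* side bin (0.604 to 0.755) and 1.28 times that of the *Dpcd* side bin (1.15 to 1.42). Among the 23 bins compared inside the inversion it was the 19th from the lowest, and the median bin was at 0.405.

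**Figure D3:**
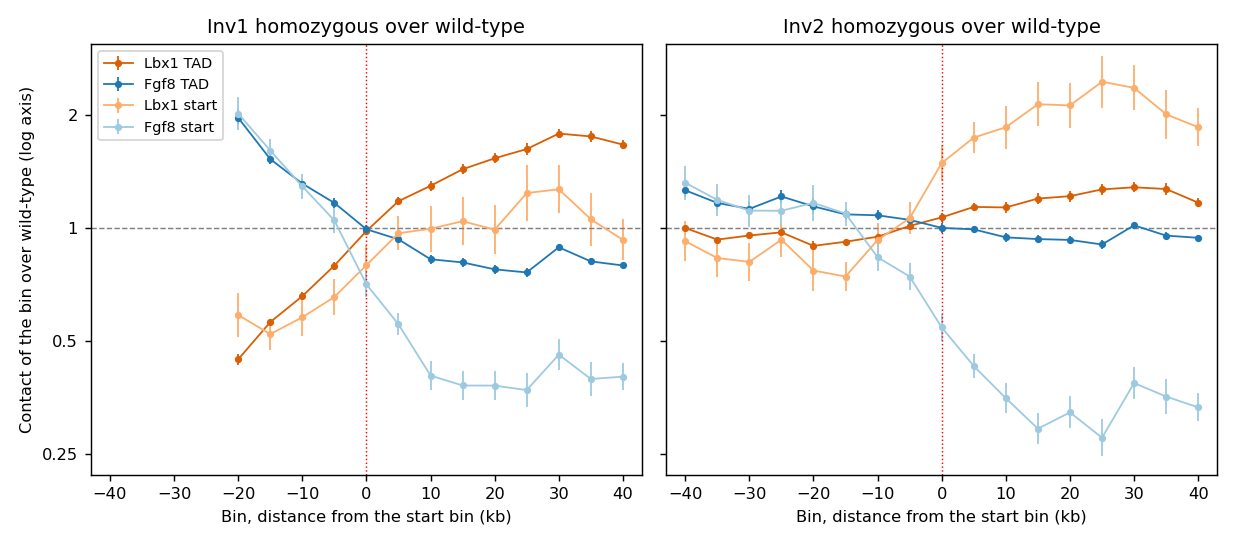
Contact of single 5 kb bins with the *Lbx1* TAD, the *Fgf8* TAD and the *Lbx1* and *Fgf8* starts in homozygous *Inv1* (left) and *Inv2* (right), as a ratio to the wild-type on a log axis, by distance of the bin from the *Poll* and *Dpcd* start bin. Bars are 95% counting intervals, bins outside the inversion are left out, and in *Inv1* both TAD ratios pass 1 at the start bin (0.983 and 0.994).

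In homozygous *Inv2*, which carries the promoter away from *Fgf8*, contact with the *Fgf8* start dropped by nearly the amount that distance alone would give. The signal per bin was 4.94 against 9.38 in the wild-type, and the ratio was 0.544 (0.499 to 0.592; expected 0.553). The telomeric boundary had a ratio of 0.551 (0.513 to 0.593; expected 0.560), and its excess over its surroundings was 1.17 (1.10 to 1.25) against 1.83. Farther out contact was less reduced than distance would give. Over the 24 telomeric windows the median ratio was 0.973 where 0.627 was expected, and 16 had a counting interval above the expected ratio.

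The *Lbx1* start gained contact with the start bin in *Inv2*. Its signal rose from 4.90 to 7.33 and its ratio was 1.49 (1.34 to 1.67; expected 1.83). This gain stopped at the TAD's outer end. The centromeric boundary, next to *Lbx1*, had a ratio of 1.03 (0.952 to 1.11; expected 1.74), *Tlx1*, a homeobox gene beyond the boundary, had 0.919 (0.774 to 1.09; expected 1.59), and 21 of the 34 centromeric windows had a counting interval below the expected ratio. The part of the *Lbx1* TAD that is turned together with the promoter had a ratio of 1.01 (0.982 to 1.04; expected 0.999).

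The whole *Lbx1* TAD had a ratio of 1.07 in *Inv2* (1.04 to 1.10) and the *Fgf8* TAD 1.00 (0.974 to 1.03), and the AER enhancers, which again keep their distance, 1.03 (0.988 to 1.08). Set directly against each other, the *Inv1* map had 0.532 times the *Inv2* contact of the promoter with the *Lbx1* start (0.483 to 0.585) and 1.30 times that with the *Fgf8* start (1.198 to 1.41). For the *Btrc* start the direct ratio was 0.926 (0.808 to 1.06), an interval that holds 1. The *Inv2* values also changed across neighbouring bins. The *Fgf8* ratio was 0.743 in the *Poll* gene body bin and 0.429 in the next *Dpcd* bin, and the *Lbx1* ratio 1.06 and 1.75.

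**Figure D4:**
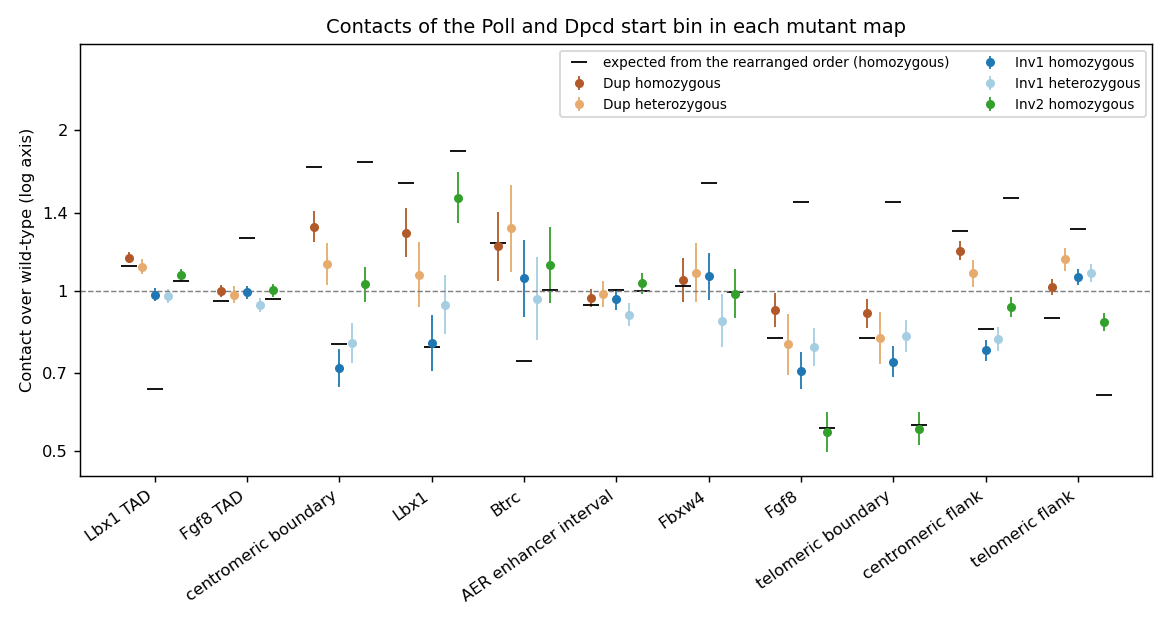
Contact of the *Poll* and *Dpcd* start bin with TADs, boundaries, gene starts (3 bins each) and flanks in the 5 mutant maps, as a ratio to the wild-type on a log axis. Points are ratios with 95% counting intervals and black dashes the ratio expected from distance in the homozygous rearranged order; the *Fgf8* start is at 0.708 in *Inv1* against an expected 1.47, and at 0.544 in *Inv2* against 0.553.

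For homozygous *Dup* the LOIC map (the balancing that keeps copy number) was brought to equal bin totals. Contact of the promoter was then higher in the *Lbx1* TAD and at its centromeric boundary. The *Lbx1* TAD had a ratio of 1.15 (1.13 to 1.18; expected 1.11), the *Lbx1* start 1.28 (1.16 to 1.43; expected 1.59), the *Btrc* start 1.21 (1.04 to 1.41; expected 1.23) and the centromeric boundary 1.32 (1.23 to 1.41; expected 1.71). The map centromeric of the TADs had 1.188 (1.14 to 1.24, with 1.29 expected). That value was not raised with profiles scaled to a common total, and its windows at or above 1.5 lay 710 kb or farther away. In the same flank the *Tlx1* start had 0.880 (0.740 to 1.05). The map telomeric of the TADs had 1.02 (0.981 to 1.05, with 0.889 expected). The *Fgf8* TAD had 0.997 (0.971 to 1.02), the AER enhancers 0.968 (0.930 to 1.01) and *Fbxw4* 1.05 (0.951 to 1.15). The *Fgf8* start, present outside the duplication only, had 0.919 (0.854 to 0.989; expected 0.817).

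The sizes of the *Dup* ratios depended on how copy number was treated. In the LOIC map as deposited, in which the bin has 2.00 times the total of bins outside, contact with the *Lbx1* TAD was 2.60 times and with the *Fgf8* TAD 2.17 times that of the wild-type, and that with the *Fgf8* start was 1.24 times. The ratio of the *Lbx1* TAD again lay above that of the *Fgf8* TAD. As shares of the deposited profile, the *Lbx1* TAD took 36.1%, the *Fgf8* TAD 29.1% and the *Fgf8* start 1.64% against 2.81% in the wild-type.

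The heterozygous maps lay on the same side of the wild-type as the homozygous ones for the outer ends of the TADs. In heterozygous *Inv1* the *Fgf8* start had a ratio of 0.785 (0.722 to 0.853), the telomeric boundary 0.822 (0.766 to 0.882) and the centromeric boundary 0.797 (0.730 to 0.869), where equal parts of the wild-type and the homozygous ratio would give 0.854, 0.868 and 0.858. Compared directly, the heterozygous map had 1.11 times the homozygous contact with the *Fgf8* start (1.02 to 1.199). The *Fgf8* TAD as a whole was at 0.940 (0.911 to 0.970) and the *Lbx1* TAD at 0.976 (0.948 to 1.01). Not all targets of heterozygous *Inv1* lay between the wild-type and the homozygous map. The AER enhancers were at 0.902 (0.858 to 0.947) against 0.964 in the homozygote, and the *Fbxw4* start at 0.879 (0.785 to 0.984) against 1.06. In heterozygous *Dup*, from 1 library, the *Lbx1* TAD had 1.11 (1.07 to 1.15), the *Btrc* start 1.31 (1.08 to 1.58), the *Lbx1* start 1.07 (0.931 to 1.23) and the *Fgf8* start 0.794 (0.696 to 0.905). The *Fgf8* start thus lay farther below the wild-type than in homozygous *Dup* (0.919). Compared directly, the heterozygous *Dup* map had 0.864 times the homozygous contact there (0.762 to 0.978).

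Per map, 3 to 12 windows of the promoter's row passed 1.5-fold in either direction. These counts are small, and whether their shares differ from those of all bins was not tested. Of the row's 77 windows of 25 kb with at least 20 wild-type read pairs, homozygous *Inv1* had 0 at or above 1.5. It had 3 (3.9%) at or below the inverse of 1.5. Over the rows of all bins these shares were 2.89% and 2.71%. The 3 lay 910 kb or farther away and held 56 to 100 wild-type read pairs. Homozygous *Inv2* had 0 and 3 (3.9%), against 6.14% and 4.96% over all bins. Of the 3, 2 covered *Fgf8* and the telomeric boundary (0.634 and 0.563) and 1 lay 1060 kb away with 43 read pairs. Heterozygous *Inv1* had 0 and 6 (7.79%), at 760 kb or farther, against 2.27% and 3.3%. Heterozygous *Dup* had 3 (3.9%) and 1 (1.3%), against 8.5% and 5.42%.

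Homozygous *Dup* had 12 windows at or above 1.5 and 0 at or below its inverse, against 11.8% and 1.82% over all bins, so that its share of 15.6% stood near that of the whole map. All 12 lay 710 kb or farther away, 11 of them on the centromeric side, with 35 to 78 wild-type read pairs and ratios of 1.52 to 2.03. Distance in the duplicated order, passed through the same scaling, gave 1.35 to 1.88 in these windows. At such distances 99.0% of the bin pairs that set the scale lie on either side of the duplication, and with profiles scaled to a common total 0 windows passed.

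**Figure D5:**
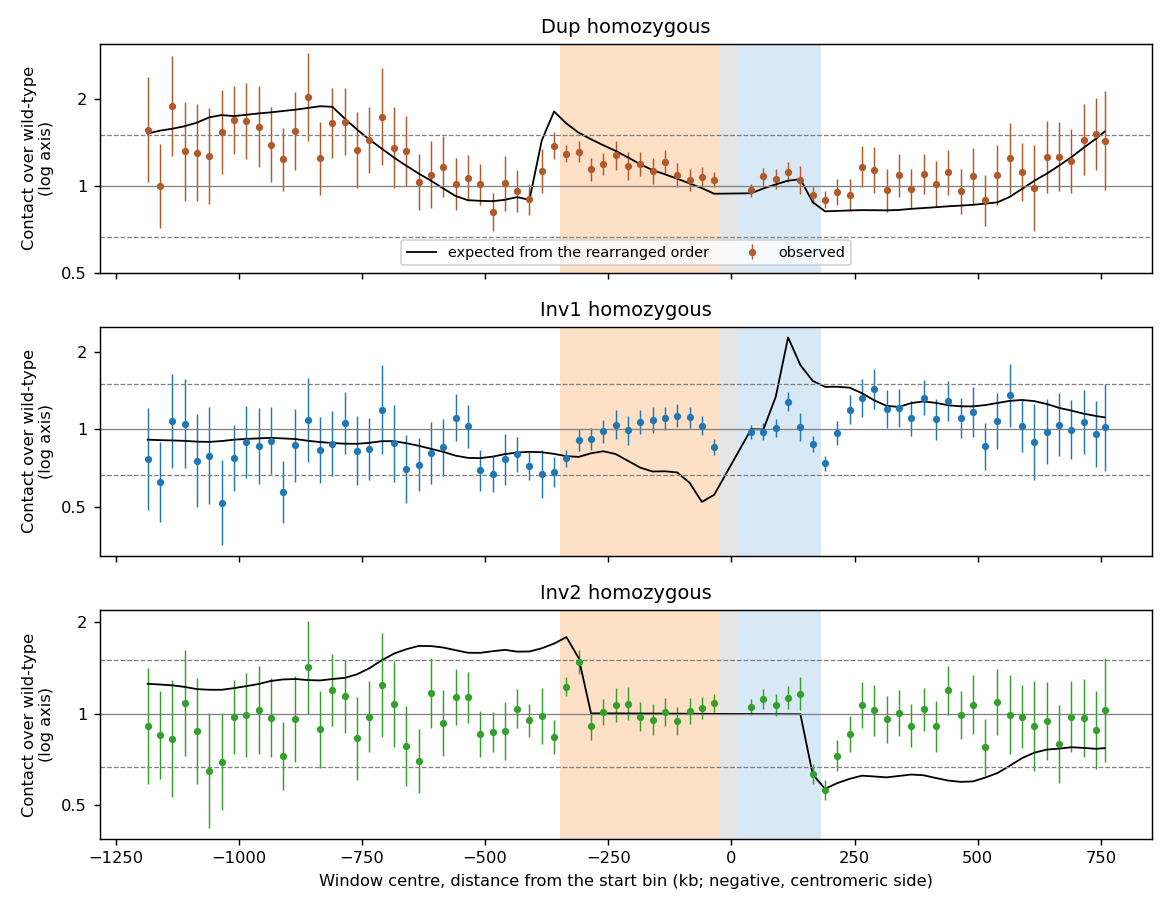
Ratio to the wild-type of the *Poll* and *Dpcd* start bin's contacts in 25 kb windows, on a log axis, by distance from the bin in kb, in homozygous *Dup*, *Inv1* and *Inv2*. Points carry 95% counting intervals, the black line is the ratio expected from the rearranged order, dashed lines mark 1.5 and its inverse, and shading marks the TADs and the stretch between them; in *Inv1* 12 of the 13 points of the *Lbx1* TAD (0.855 to 1.13) lie above the line and the outermost (0.773) just below it.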

How the data were processed

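The authors trimmed reads to 50 bp, ran HiCUP with Bowtie2 2.4.2 against mm9 for mapping and removal of duplicates, kept read pairs with MAPQ of at least 30, joined the replicates of a genotype and binned at 5 kb. The deposited values are contact signal, balanced with Juicer tools 1.19.02 by Knight-Ruiz (KR) for the wild-type and inversions and by LOIC, which keeps copy number, for *Dup*. Per the file headers and names, 3 further maps hold the authors' subtractions and were not used. Reads stayed in the reference order in every map.

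Each value was divided by balancing factors solved from the map, which gave whole read pairs for 100% of values within 0.01 (7867931 in the wild-type, 3350758 to 13101700 in the mutants). Joint scaling at each distance left out the rearranged interval, then set a total of 1000000. Ratio intervals are 1.96 standard errors of the logarithm, cover counting error only and take read pairs as independent. Expected ratios used the wild-type decay in the rearranged order, balanced and scaled alike. TADs, boundaries and the AER interval were read from a figure and are uncertain by a bin or more. Genes came from GENCODE vM1 and sequences from the mm9 genome. In that annotation *Slf2*, *Twnk* and *Oga* are named *Fam178a*, *Peo1* and *Mgea5*. Genes named were *Poll*, *Dpcd*, *Lbx1*, *Btrc*, *Fbxw4*, *Fgf8*, the flanking *Slf2*, *Twnk*, *Oga* and *Tlx1*, the 3 starts more than 100 kb away with the strongest contact for their distance and the 3 more than 25 kb away with the most similar rows. The members, regions and lists were chosen with earlier results of these data known. Alternatives were another viewpoint width or bin, margin, scaling, fold, window and read pair minimum. The steps were tested on simulated maps. Python 3.11.15, numpy 2.4.6 and matplotlib 3.10.9 were used.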

Additional observations from a re-analysis of the deposited data

How the results depend on the processing

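No paired analysis was possible because the deposited maps merge the replicates of each genotype and no test over replicates was made. A viewpoint of 3 bins around the start bin left all 11 TAD contacts within their counting intervals. It is no independent check, because it contains the start bin and joins neighbours that can differ in opposite directions. For the *Lbx1* TAD in homozygous *Inv1* these neighbours had 0.795 and 1.18. Of 38 alternative values of the TAD contacts, 16 stayed within the counting interval of the reported value. The cause of the other differences was not tested, apart from the deposited LOIC map, which by its construction keeps copy number.

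The neighbouring bin on the *Poll* side moved the TAD ratios in all 5 mutant maps. The wild-type per-bin ratio of *Lbx1* to *Fgf8* TAD was 0.775 there, 0.606 with a margin of 25 kb and 0.551 in read pairs without balancing. In that bin the *Lbx1* and *Fgf8* TAD ratios were 1.12 and 1.04 in homozygous *Dup*, 0.795 and 1.17 in *Inv1*, 1.01 and 1.05 in *Inv2*, and 1.06 and 1.03 in heterozygous *Dup*. In heterozygous *Inv1* they were 0.895 and 1.05. The *Fgf8* TAD ratio thus stood above 1 in that bin in all 5 maps. In heterozygous *Dup* its interval there held 1 (0.988 to 1.07). In the start bin the ratio was below 1 in heterozygous *Inv1* (0.940) and had intervals that hold 1 in the other 4. By point value, the *Poll* side bin also stood above 1 for some targets where the start bin stood below. In *Inv1* these were *Fgf8* (1.05, interval 0.971 to 1.13), the telomeric boundary (1.07) and *Slf2* (1.01). In *Inv2* they were *Slf2* (1.17), *Oga* (1.06) and the telomeric flank (1.03). In heterozygous *Inv1* they were *Fbxw4* (1.13), *Fgf8* (1.02, interval 0.938 to 1.10) and the telomeric boundary (1.01).

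With profiles scaled to a common total, the *Lbx1* and *Fgf8* TAD ratios were 1.10 and 0.970 in homozygous *Dup* and 1.07 and 0.911 in heterozygous *Dup*, and the *Lbx1* TAD was at 1.02 in heterozygous *Inv1*. The centromeric flank turned from 1.188 to 0.998 in homozygous *Dup* and from 0.932 to 1.03 in *Inv2*. In the deposited LOIC maps the TAD ratios were 2.60 and 2.17 in homozygous and 1.81 and 1.58 in heterozygous *Dup*, where the start bin's total is 1.5 times that of bins outside the duplication and the copy number set by the authors is unknown here. In homozygous *Dup* *Fgf8* (1.24) and the telomeric boundary (1.24) stood above 1. These alternatives for gene starts, boundaries and flanks were chosen after seeing the data.

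Counts of windows depended on the thresholds. In the order homozygous *Dup*, homozygous *Inv1*, homozygous *Inv2*, heterozygous *Dup*, heterozygous *Inv1*, a fold of 2 gave 1, 0, 0, 0 and 1 windows and a fold of 1.2 gave 34, 27, 16, 34 and 30. At least 100 wild-type read pairs left 0 in homozygous *Dup* and 1 in homozygous *Inv1*, heterozygous *Dup* and heterozygous *Inv1*. Windows of 50 kb gave 5, 1, 1, 0 and 3, and common-total profiles gave 0 in homozygous *Dup*, 1 in *Inv1* (above the fold in place of below) and 2 in heterozygous *Dup*.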

Other observations

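Of the 4 named genes outside the TADs, *Oga* and *Tlx1* had more contact with the promoter than *Slf2* and *Twnk*, and they also lie nearer. *Oga* starts 220.7 kb and *Tlx1* 413.8 kb from the bin, against 556.9 kb for *Twnk* and 631.9 kb for *Slf2*. *Oga*, which encodes the enzyme that removes O-GlcNAc from proteins and lies telomeric of *Fgf8*, had a wild-type signal of 3.61 per bin in the promoter's profile from 367 read pairs, and *Tlx1* had 2.33 from 235. *Slf2*, whose product helps to bring the SMC5/6 complex to damaged DNA, had 0.805 from 79, and *Twnk*, which encodes the mitochondrial DNA helicase, had 0.780 from 72. Only 2 of these 4 gene starts had a wild-type observed over expected above 1.2, *Tlx1* at 1.56 and *Oga* at 1.26. *Slf2* had 1.11 and *Twnk* 0.824.

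In *Inv1* the *Tlx1* ratio was 0.728 (0.610 to 0.870; expected 0.820) and the *Oga* ratio 1.00 (0.868 to 1.15; expected 1.47), so the gene that came nearer had the wild-type contact. In *Inv2* the *Oga* ratio was 0.781 (0.673 to 0.905; expected 0.596). The *Slf2* ratio was below 1 in both inversions, at 0.679 (0.503 to 0.916) in *Inv1* and 0.702 (0.519 to 0.951) in *Inv2*, although *Inv2* brings *Slf2* nearer and distance would give 1.67. The bin of the *Poll* gene body had 1.01 and 1.17 for *Slf2*, and the number of read pairs limits these values. *Twnk* had 1.14 (0.862 to 1.52) in *Inv1* and 1.22 (0.922 to 1.62) in *Inv2*, intervals that hold 1.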
